A study of Mus musculus with 13 samples.

Results

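The CCN genes encode secreted matricellular proteins, which sit in the extracellular matrix and modulate signalling rather than bearing load. The members examined were Ccn1 (formerly Cyr61), Ccn2 (Ctgf), Ccn3 (Nov), Ccn4 (Wisp1) and Ccn5 (Wisp2). A probe set was taken if the platform annotation gave it exactly 1 gene symbol and that symbol was a member. This yielded 10 of the 45101 probe sets on the array. Each gene was tested on its probe set with the highest mean over all 13 arrays, and the others are given beside it. All 5 members passed the filter on low values and were tested among 12205 genes.

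Gene expression was measured on Affymetrix mouse arrays in UG26-1B6, a single stromal clone, derived from embryonic mouse urogenital ridge at midgestation, that is used as a feeder layer for blood stem cells. The design followed this stroma over time: day 0 stroma collected by trypsinisation (n = 3), a medium control of stroma 24 h after fresh medium without LSK cells (n = 2), and co-cultured stroma harvested on LSK days 1, 2 and 3 (n = 3, 3 and 2). LSK cells are a bone marrow fraction, negative for lineage markers and positive for Sca-1 and c-Kit, that is enriched for stem and progenitor cells of the blood. Co-cultured stroma had been grown to confluence and irradiated at 30 Gy, and co-cultures were kept at 33 °C. The labels do not state whether the stroma without LSK cells was irradiated, or by what means LSK cells were removed before RNA isolation. The replicates are biological by their titles but technical by the design text. The p-values therefore measure the spread between these samples and nothing wider.

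CCN proteins are built from modules that resemble insulin-like growth factor binding proteins, von Willebrand factor type C repeats, thrombospondin repeats and a cysteine knot. Through these they bind integrins, heparan sulphate proteoglycans, LRP receptors and growth factors such as TGF-beta, BMPs and VEGF. Ccn1 and Ccn2 are immediate early genes and classic targets of the transcription regulators YAP and TAZ with TEAD factors, of serum response factor and of TGF-beta. CCN3 often opposes CCN2 in fibroblasts and mesangial cells, and in human cord blood it has been studied as a regulator of stem and progenitor cells. Ccn4 and Ccn5 were found as genes induced by Wnt1 in mouse mammary cells, and CCN5 lacks the cysteine knot.

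The family did not move as a block. Ccn3 was the largest fall of all 12205 genes after 2 and 3 days with LSK cells and the second largest after 1 day. Ccn2 was higher after 1 day with LSK cells and stood nearly as high in the medium control. For Ccn1, Ccn4 and Ccn5, 0 of 7 comparisons passed the test (limma, Benjamini-Hochberg adjusted p over all genes, threshold 0.05).

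Values are on a log2 scale with a shared lowest value of 2.28. Day 2 replicate 1 stood apart from every other array, also in the blood cell and stromal markers given below. Its highest correlation with another array was 0.785, while the highest of each other array lay between 0.936 and 0.996. Gapdh probe sets near the 3' end exceeded those near the 5' end by 8.96 on it and by 5.79 on day 3 replicate 2, against 2.15 to 3.82 on day 0 and medium control arrays. Differences that rest on this array are therefore given with and without it. That array also enters comparisons that do not involve day 2, because the fit shares 1 estimate of each gene's spread.

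Markers of the stromal clone were checked beside markers of the cells added to it. Of 10 stromal markers, 8 had a day 0 mean above 5, while Thy1 and Lum lay at the lowest value. The mean of this list was 7.28 to 8.08 on day 1, 5.10 to 7.40 on day 2 and 7.39 to 7.55 on day 3 with LSK cells, and 7.77 to 7.88 in the medium control and 8.14 to 9.03 at day 0. Ptprc, the pan-leukocyte gene, reached 2.69 to 4.13 on day 1, 6.94 to 10.93 on day 2 and 5.34 to 9.18 on day 3, and lay at 2.28 on all medium control and day 0 arrays. The 10 haematopoietic markers averaged 3.54 to 4.47, 4.72 to 7.98 and 4.85 to 6.10 on these days, 2.88 to 2.95 in the medium control and 3.04 to 3.20 at day 0. Of these, Kit lay within 0.1 of the lowest value in all groups, and Ikzf1, Spi1 and Cd48 did on LSK day 1. Spi1 and Cd48 did again on LSK day 3. The 9 myeloid markers on the array averaged 4.18 to 4.75, 5.38 to 10.44 and 6.85 to 7.40 on LSK days 1 to 3. They averaged 2.87 to 2.92 in the medium control and 2.94 to 3.04 at day 0. Of these, Itgam lay within 0.1 of the lowest value in all groups, and Elane and S100a9 did on LSK day 1. On LSK day 2 the stromal, haematopoietic and myeloid lists averaged 5.10, 7.98 and 10.44 on replicate 1. They averaged 6.67, 4.72 and 5.38 on replicate 2 and 7.40, 4.90 and 5.68 on replicate 3. The 6 endothelial markers averaged 3.39 to 3.47, 2.48 to 3.77 and 3.17 to 3.33 on LSK days 1 to 3. They averaged 3.67 in the medium control and 3.00 to 3.72 at day 0, and of these Pecam1, Cdh5 and Emcn lay within 0.1 of the lowest value in all groups. Poly-A spike-in probe sets averaged 6.99 to 9.77, 7.06 to 12.9 and 9.23 to 12.1 on days 1 to 3, 3.45 to 3.58 in the medium control and 3.78 to 6.20 at day 0. The part of the cell types and of the spike-ins in the results on the CCN genes was not tested.

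Ccn1, whose protein supports adhesion, migration and blood vessel growth, kept within a narrow range on 11 of 13 arrays on its tested probe set. It is also the only member with an entry in the RefSeq promoter table (1 of 5 members matched), so its promoter is shown as the sequence on which the pathway lists below can be read. The window covers 250 bases before to 50 bases after the start of Ccn1 on the minus strand at chr3:145649936-145650235 (GRCm38.p6), and capitals mark, in order, a TEAD motif, the core of a cAMP response element and a TATA box.
Ccn1 promoter: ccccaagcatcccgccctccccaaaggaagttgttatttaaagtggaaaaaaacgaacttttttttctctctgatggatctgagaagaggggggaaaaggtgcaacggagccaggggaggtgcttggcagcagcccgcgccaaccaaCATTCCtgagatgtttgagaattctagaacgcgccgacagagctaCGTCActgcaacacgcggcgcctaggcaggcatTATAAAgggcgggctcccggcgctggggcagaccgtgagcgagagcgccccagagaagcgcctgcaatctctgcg

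Motifs were searched on both strands, and no match here overlapped another. The TEAD motif GGAATG lies on the other strand at position -103 from the start, and 14.6% of 27025 promoters of 300 bases hold it. The cAMP response element core TGACG lies on the other strand at -58 (21% of promoters), and TATAAA lies at -25 (14.2% of promoters). The SMAD motif CAGAC lies at position 4 and is left in lower case, since 49.7% of promoters hold it. The serum response factor motif known as the CArG box (1.57% of promoters) and the AP-1 motif TGANTCA (7.93%) had no match in this window. A match is a run of letters, not a measured binding site.

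On its tested probe set, 1416039_x_at, Ccn1 measured 13.66, 14.01 and 13.54 at day 0, 13.55 and 13.64 in the medium control, 13.79, 14.10 and 13.99 on LSK day 1, 10.92, 11.60 and 13.92 on LSK day 2, and 14.10 and 13.35 on LSK day 3. Of the 13 arrays, 11 lay between 13.35 and 14.10, and only day 2 replicates 1 and 2 lay lower, while day 2 replicate 3 lay within the day 0 range. The level averaged 13.96 ± 0.16 on LSK day 1 (SD, n = 3), against 13.60 ± 0.06 in the medium control (SD, n = 2) and 13.73 ± 0.24 at day 0 (SD, n = 3).

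After 1 day with LSK cells Ccn1 differed from day 0 by 0.23 ± 0.63 on the log2 scale (SE, 95% interval -1.19 to 1.64, adjusted p = 1). It differed from the medium control by 0.36 ± 0.70 (95% interval -1.22 to 1.95, adjusted p = 0.927), and the medium control differed from day 0 by -0.14 ± 0.70 (adjusted p = 1). On day 2 the mean was 12.14 ± 1.57, against 13.73 ± 0.24 at day 0, a difference of -1.59 ± 0.63 (adjusted p = 0.158, and -0.97 with adjusted p = 0.323 without day 2 replicate 1). It was -2.48 without day 2 replicate 3 (adjusted p = 0.000925), in a fit where 3497 of 12205 genes passed. The median of all genes stood at -0.29 in this comparison, and at -0.11 without day 2 replicate 1. On day 3 the difference from day 0 was -0.0062 ± 0.70 (adjusted p = 1). In order of mean level Ccn1 ran LSK day 1, day 0, LSK day 3, medium control and LSK day 2, and all neighbours in that order overlapped.

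The 4 probe sets of Ccn1 fell into pairs that did not track each other. 1438133_a_at followed the tested probe set, with a correlation of 0.977 over 13 arrays. 1442340_x_at and 1457823_at, which share the accession BB533736, correlated at 0.999 with each other. Across the pairs the correlation was 0.602 to 0.657 over 13 arrays and -0.183 to -0.150 over the 12 without day 2 replicate 1. The points share arrays, labelling and amplification, so these correlations are descriptions.

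The pairs parted on named arrays. At day 0, 1457823_at measured 9.65, 9.36 and 6.67, so replicate 3 lay far below the others, whereas the tested probe set read 13.54 there. On LSK day 2, 1457823_at measured 2.63, 9.19 and 8.66, so replicate 2 was among its high arrays, whereas the tested probe set was low there. The difference between LSK day 2 and day 0 was -1.83 ± 0.89 on 1438133_a_at, -1.64 ± 1.45 on 1442340_x_at and -1.73 ± 1.52 on 1457823_at. None of the 4 passed in any of the 7 comparisons when every one of 25216 probe sets was tested, with or without day 2 replicate 1.

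**Figure D1:**
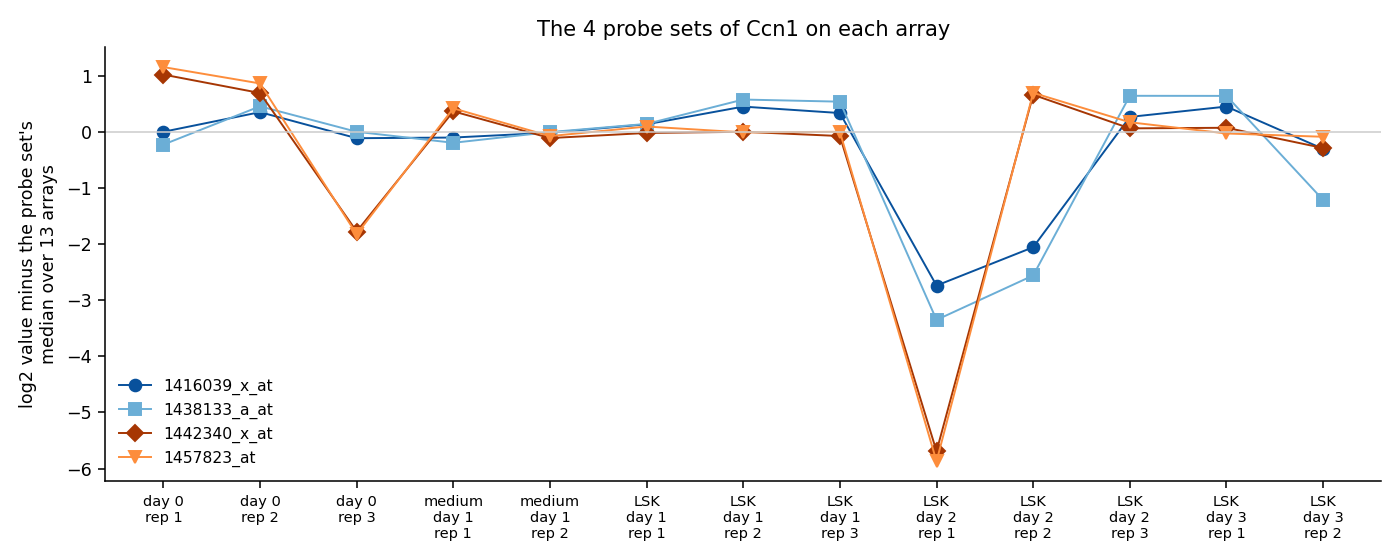
Log2 value of each Ccn1 probe set minus that probe set's median over the 13 arrays (y axis), for each array (x axis, by group and replicate, 1 line per probe set). The blue pair drops on LSK day 2 replicates 1 and 2, and the orange pair drops on day 0 replicate 3 and LSK day 2 replicate 1.

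Ccn2, the connective tissue growth factor gene, encodes a cofactor of TGF-beta in matrix production and has a single probe set, 1416953_at. It measured 10.12, 10.06 and 10.63 at day 0, 13.62 and 13.61 in the medium control, 13.46, 14.17 and 13.86 on LSK day 1, 10.92, 13.14 and 13.73 on LSK day 2, and 12.31 and 14.22 on LSK day 3. All 10 later arrays lay above all 3 day 0 arrays. Day 2 replicate 1 was the closest to day 0, and the 2 medium control arrays lay inside the range of LSK day 1.

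Ccn2 rose after 1 day with LSK cells, to 13.83 ± 0.36 (SD, n = 3), against 10.27 ± 0.31 at day 0 (SD, n = 3). This is a difference of 3.56 ± 0.70 (11.8-fold, adjusted p = 0.0391), and adjusted p = 0.00469 without day 2 replicate 1. The call held in 5 of 13 removals of 1 array. It was lost on leaving out any single day 0, medium control or LSK day 1 array, with adjusted p up to 0.153, while the difference stayed between 3.39 and 3.75.

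The medium control stood at 13.61 ± 0.01 (SD, n = 2), against 10.27 ± 0.31 at day 0, a difference of 3.34 ± 0.78 (10.2-fold, adjusted p = 0.155, and 0.0206 without day 2 replicate 1). Ptprc lay at 2.28 on these medium control arrays, as at day 0. Their poly-A spikes averaged 3.45 to 3.58, against 3.78 to 6.20 at day 0. The part of either in the Ccn2 difference was not tested. On day 2 the mean was 12.59 ± 1.48, against 10.27 ± 0.31 at day 0, a difference of 2.33 ± 0.70 (adjusted p = 0.0956). The difference was 3.16 ± 0.50 without day 2 replicate 1 and passed (adjusted p = 0.0243). On day 3 the mean was 13.26 ± 1.35, against 10.27 ± 0.31 at day 0, a difference of 3.00 ± 0.78 (adjusted p = 0.128, and 0.0134 without day 2 replicate 1).

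Between LSK day 1 and the medium control the difference was 0.22 ± 0.78, with a 95% interval of -1.53 to 1.97 (adjusted p = 1). Without day 2 replicate 1 the interval was -0.93 to 1.36. With all arrays it spans changes of over 2-fold in either direction, so the test does not show that the levels are alike. In order of mean level Ccn2 ran LSK day 1, medium control, LSK day 3, LSK day 2 and day 0, and of these neighbours only LSK day 2 and day 0 had ranges that did not overlap.

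Ccn3, the nephroblastoma overexpressed gene, encodes a growth-restraining member of the family. On 1426852_x_at it measured 10.89, 12.02 and 9.98 at day 0, 7.01 and 7.43 in the medium control, 6.22, 3.88 and 3.42 on LSK day 1, 3.42, 2.28 and 3.69 on LSK day 2, and 5.26 and 4.16 on LSK day 3. The 3 day 0 arrays lay above every other array, and the 2 medium control arrays lay above all 8 arrays with LSK cells. Day 2 replicate 2 was at the lowest value of the table, so its level is a bound. In bulk samples, fewer cells of a type and less RNA per cell cannot be told apart.

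Ccn3 fell after 1 day with LSK cells, to 4.51 ± 1.50 (SD, n = 3), against 10.97 ± 1.02 at day 0 (SD, n = 3). This is a difference of -6.46 ± 0.78 (88.0-fold lower, adjusted p = 0.00934, and 0.00469 without day 2 replicate 1). The call was lost without LSK day 1 replicate 2 (adjusted p = 0.0588) or replicate 3 (adjusted p = 0.0595) and held in the other 11 removals of 1 array. It was the second lowest of 12205 differences, after AW551984 (-6.77), which was chosen after its values were seen.

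On day 2 Ccn3 fell to 3.13 ± 0.75, against 10.97 ± 1.02 at day 0, a difference of -7.84 ± 0.78 (adjusted p = 0.00406). With replicate 2 at the lowest value, this size is a lower bound on the fall. The difference was -7.98 without day 2 replicate 1 (adjusted p = 0.00896), and the call held in 13 of 13 removals of 1 array, with adjusted p between 0.000697 and 0.0314. On day 3 it fell to 4.71 ± 0.78 (SD, n = 2), against 10.97 ± 1.02 at day 0, a difference of -6.26 ± 0.87 (adjusted p = 0.0233, and 0.00891 without day 2 replicate 1). The day 3 call held in 7 of 13 removals. It was lost without day 0 replicate 2, either medium control array, LSK day 1 replicate 2 or 3, or LSK day 3 replicate 2, with adjusted p up to 0.1.

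Part of the distance was already present without LSK cells. The medium control stood at 7.22 ± 0.30 (SD, n = 2), against 10.97 ± 1.02 at day 0, a difference of -3.75 ± 0.87 (adjusted p = 0.155, and 0.0907 without day 2 replicate 1). LSK day 1 stood at 4.51 ± 1.50, against 7.22 ± 0.30 in the medium control, a difference of -2.71 ± 0.87 with a 95% interval of -4.67 to -0.75 (adjusted p = 0.109, and 0.0752 without day 2 replicate 1). Neither step passed. The groups did not overlap in either, which held for 43.3% of all genes in the first comparison and 62.5% in the second. In order of mean level Ccn3 ran day 0, medium control, LSK day 3, LSK day 1 and LSK day 2, and the ranges were apart between day 0 and the medium control and between the medium control and LSK day 3. The stromal marker list averaged 7.28 to 8.08 on LSK day 1, 7.77 to 7.88 in the medium control and 8.14 to 9.03 at day 0, and its part was not tested.

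The second probe set, 1426851_a_at, measured 10.44, 11.79 and 9.82 at day 0, 6.47 and 6.90 in the medium control, 6.06, 3.48 and 2.75 on LSK day 1, 3.44, 2.28 and 3.75 on LSK day 2, and 4.77 and 3.57 on LSK day 3. It followed the first with a correlation of 0.997 over 13 arrays. Both derive from the accession X96585, so they are not independent. Its differences from day 0 were -6.59, -7.53 and -6.52 on days 1, 2 and 3, with adjusted p = 0.00822, 0.0063 and 0.0181 over 25216 probe sets.

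**Figure D2:**
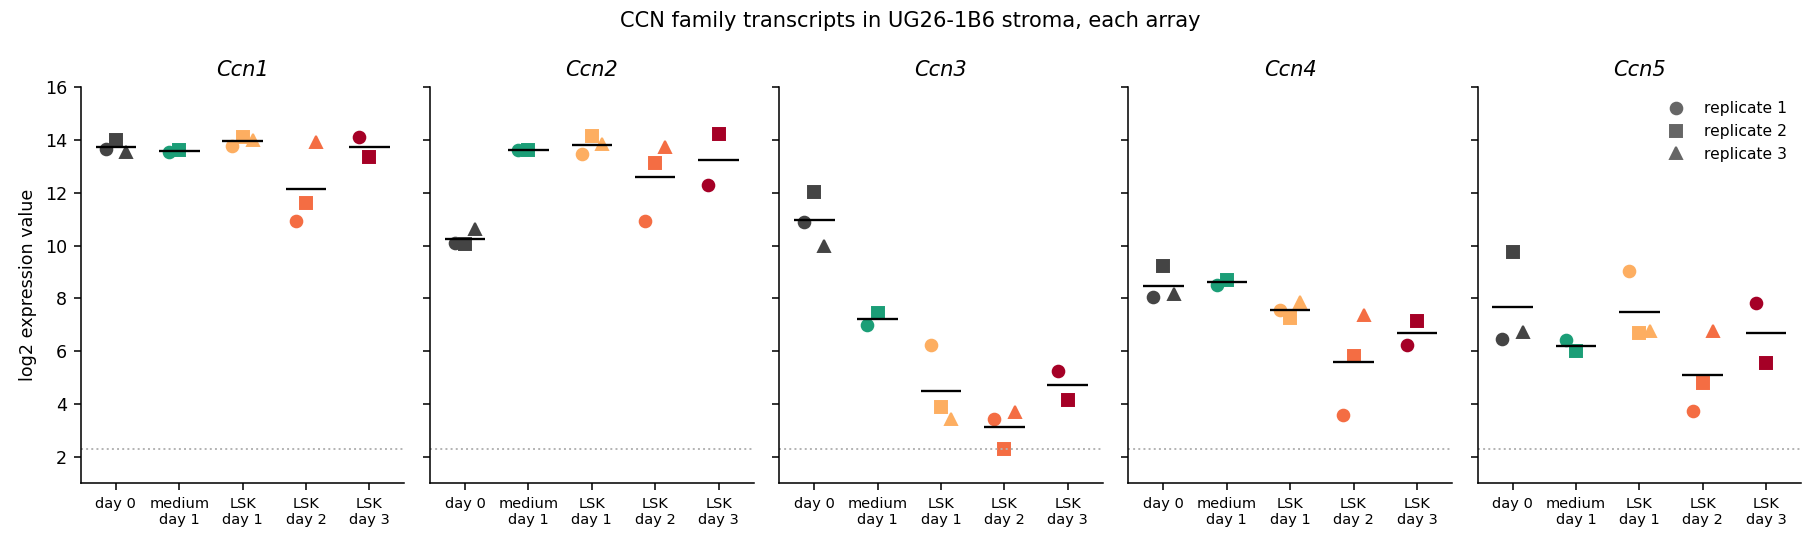
Log2 expression value (y axis) of the tested probe set of each CCN gene on every array, by group (x axis), with point shapes for replicates, black bars for group means and a dotted line at the lowest value, 2.28. Ccn2 lies at 10.06 to 10.63 at day 0 and at 10.92 to 14.22 afterwards, and Ccn3 lies at 9.98 to 12.02 at day 0 and at 2.28 to 7.43 afterwards.

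Ccn4, a Wnt1-induced gene linked to bone and matrix formation, has 2 probe sets. On the tested one, 1448594_at, it measured 8.06, 9.22 and 8.18 at day 0, 8.53 and 8.69 in the medium control, 7.56, 7.27 and 7.86 on LSK day 1, 3.59, 5.83 and 7.39 on LSK day 2, and 6.22 and 7.15 on LSK day 3. All 8 arrays with LSK cells lay below all 5 arrays without them, and the lowest was day 2 replicate 1. The share of all genes separated in this way was not counted. Between LSK day 1 and day 0 groups did not overlap for 39% of genes, and between LSK day 1 and the medium control for 62.5%. Day 0 and the medium control overlapped.

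The medium control differed from day 0 by 0.12 ± 0.89 (adjusted p = 1). Ccn4 stood at 7.56 ± 0.29 on LSK day 1 (SD, n = 3), against 8.61 ± 0.12 in the medium control (SD, n = 2), a difference of -1.05 ± 0.89 (95% interval -3.04 to 0.95, adjusted p = 0.615). That difference passed when only these groups were fitted (adjusted p = 0.0294), and the share of all genes that passed in that fit is not given. Differences from day 0 were -0.93 ± 0.79 on LSK day 1 (adjusted p = 0.669), -2.88 ± 0.79 on day 2 (adjusted p = 0.0808) and -1.80 ± 0.89 on day 3 (adjusted p = 0.41). Without day 2 replicate 1 the day 2 difference was -1.88 (adjusted p = 0.094) and the day 3 adjusted p was 0.0723. The day 2 difference was -3.77 without day 2 replicate 3 and passed (adjusted p = 0.00399).

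The second probe set of Ccn4, 1448593_at, did not separate the groups in this way. It measured 5.67, 7.02 and 6.08 at day 0, 6.98 and 6.45 in the medium control, 6.83, 6.53 and 7.12 on LSK day 1, 3.39, 5.05 and 6.09 on LSK day 2, and 5.67 and 6.02 on LSK day 3. LSK day 1 lay within or just above the ranges of the medium control and of day 0. The difference between LSK day 1 and day 0 was 0.57 ± 0.61 here (adjusted p = 0.808), opposite in sign to the tested probe set. The 2 probe sets correlated at 0.885 over 13 arrays and at 0.708 without day 2 replicate 1.

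Ccn5, induced by Wnt1 like Ccn4, had the widest spread within groups. On 1419015_at it measured 6.47, 9.77 and 6.73 at day 0, 6.43 and 5.99 in the medium control, 9.05, 6.70 and 6.76 on LSK day 1, 3.72, 4.80 and 6.78 on LSK day 2, and 7.82 and 5.57 on LSK day 3. Single arrays, day 0 replicate 2 and LSK day 1 replicate 1, lay more than 2 log2 units above the others of their group. LSK day 1 stood at 7.51 ± 1.34, against 6.21 ± 0.31 in the medium control and 7.66 ± 1.84 at day 0. Its differences from day 0 were -1.45 ± 1.26 in the medium control (adjusted p = 0.901), -0.16 ± 1.13 on LSK day 1 (adjusted p = 1) and -0.96 ± 1.26 on LSK day 3 (adjusted p = 0.849). The largest was -2.56 ± 1.13 on day 2 (adjusted p = 0.186, and -1.87 with adjusted p = 0.372 without day 2 replicate 1). Between LSK day 1 and the medium control the difference was 1.29 ± 1.26, with a 95% interval of -1.53 to 4.12 (adjusted p = 0.682). Neighbouring groups in the order of Ccn5 levels all overlapped.

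Counted over the family, 2 of 5 members passed between LSK day 1 and day 0, Ccn2 higher and Ccn3 lower, where 2.15% of 12205 genes passed. Ccn3 was the 1 member that passed on LSK day 2 and on LSK day 3 against day 0. Of all genes, 2.26% and 0.819% passed there. On LSK day 2 all 5 members had an unadjusted p under 0.05 in limma, Ccn2 higher and the other 4 lower. On LSK day 3, 2 members did, 1 in each direction. The share of all genes with an unadjusted p under 0.05 was not counted in any comparison. Counts by that rule are therefore not read as results about the members or the lists below. Without day 2 replicate 1 the unadjusted limma p on LSK day 2 was 0.121 for Ccn1 and 0.16 for Ccn5. Between the medium control and day 0, 0 of 5 members passed in limma, with 2 at an unadjusted p under 0.05, where 0.328% of genes passed. Between LSK day 1 and the medium control 0 passed, with 1 at an unadjusted p under 0.05, where 5.2% of genes passed. With 5 members, these counts are descriptions of named genes.

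Without day 2 replicate 1, the members that passed were Ccn2 between the medium control and day 0, and Ccn2 and Ccn3 between each of LSK days 1, 2 and 3 and day 0. The shares of all genes that passed were then 1.36%, 10.6%, 2.48% and 7.69%. Groups that did not overlap were common among all genes. For LSK day 1 against day 0 they did not overlap for 3 members, Ccn2, Ccn3 and Ccn4, and for 39% of genes. For the medium control against day 0 they did not overlap for Ccn2, Ccn3 and Ccn5, and for 43.3% of genes. For LSK day 1 against the medium control they did not overlap for 4 members, Ccn1 and Ccn5 higher and Ccn3 and Ccn4 lower, and for 62.5% of genes. Separations of day 0 from all later arrays, or of all arrays with LSK cells from those without, were not counted over all genes.

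Between later and earlier co-culture days the family had 0 calls. All 5 members had lower means on LSK day 2 than on LSK day 1, by 1.23 to 2.40 on the log2 scale. Their adjusted p lay between 0.378 and 0.449, 2 of the 5 (Ccn1 and Ccn4) had an unadjusted p under 0.05, and 0.00819% of genes passed. These differences, when day 2 replicate 1 was left out, were -1.20 for Ccn1, -0.40 for Ccn2, -1.52 for Ccn3, -0.95 for Ccn4 and -1.72 for Ccn5. The median of all genes was -0.19 with that array and -0.05 without it. Between LSK day 3 and LSK day 1 the differences ran between -0.87 and 0.20, with adjusted p = 1 for each, 0 at an unadjusted p under 0.05 and 0.00819% of genes called.

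**Figure D3:**
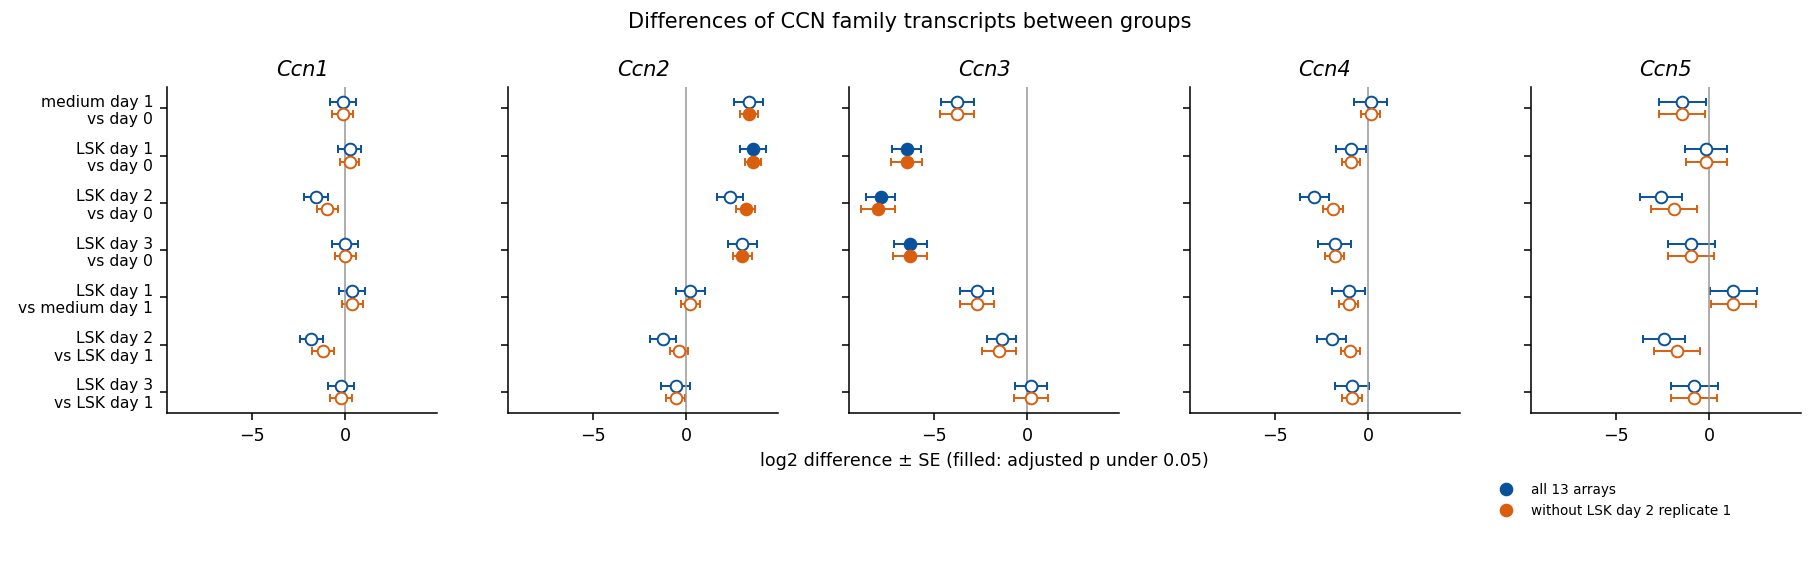
Log2 difference ± SE (x axis) of each CCN gene in the 7 comparisons (y axis), over all 13 arrays in blue and without LSK day 2 replicate 1 in orange, with filled points for adjusted p under 0.05. With all arrays the filled points are Ccn2 on LSK day 1 and Ccn3 on LSK days 1, 2 and 3, all against day 0.

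The members' places among all genes differed as widely as their changes. The comparisons with day 0 share the 3 day 0 arrays, so the ranks are given side by side and are not independent of each other. Counted from the lowest difference, Ccn3 ranked 11th in the medium control, 2nd on LSK day 1, and 1st on LSK days 2 and 3. Counted from the highest, Ccn2 ranked 15th in the medium control, 15th on LSK day 1, 198th on day 2 (46th without day 2 replicate 1) and 84th on day 3. Ccn1 ranked 6018th from the lowest on LSK day 3, near the middle of 12205 genes.

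**Figure D4:**
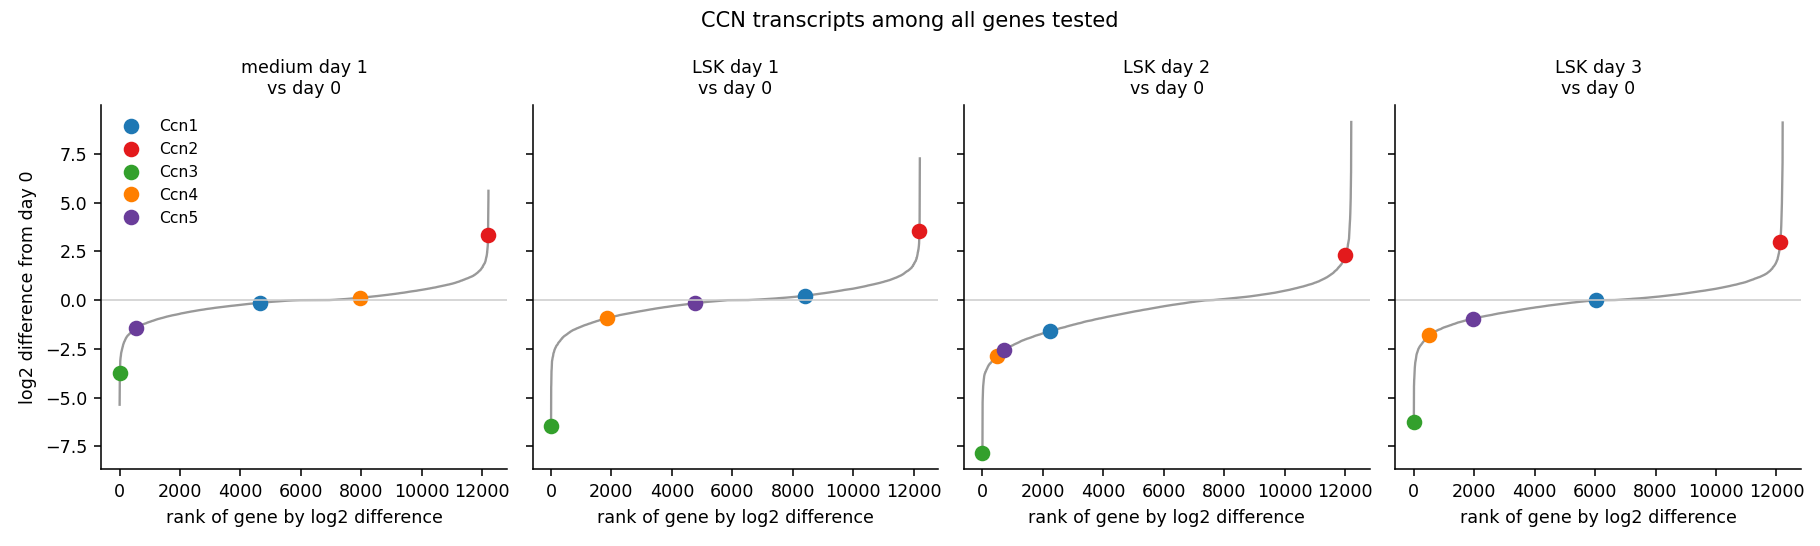
Log2 difference from day 0 (y axis) of all 12205 genes in order of that difference (x axis, grey line), for the medium control and LSK days 1, 2 and 3, with the 5 CCN genes as coloured points. Ccn3 lies at the low end and Ccn2 near the high end in each panel, and Ccn1 lies between -1.59 and 0.23.

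Over the 13 arrays Ccn2 and Ccn3 had a correlation of -0.70, and -0.85 over the 12 without day 2 replicate 1. Ccn3 and Ccn4 stood at 0.65 and 0.74, and Ccn1 and Ccn4 at 0.78 and 0.47, in the same order. Arrays of a group share culture and handling, and these values describe the arrays only.

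The genes with the pattern most like Ccn3, by Pearson correlation over 13 arrays among all genes tested, were Fbn2 (0.973), Sfrp2 (0.968) and Prkg1 (0.944). Fbn2 encodes the microfibril protein fibrillin-2, Sfrp2 a secreted modulator of Wnt signalling and Prkg1 a cGMP-dependent kinase. Sfrp2 measured 10.08, 9.71 and 8.48 at day 0, 6.95 and 6.89 in the medium control, 6.02, 3.95 and 4.04 on LSK day 1, 2.52, 2.49 and 5.21 on LSK day 2, and 5.61 and 4.36 on LSK day 3. Like Ccn3 it had its highest arrays at day 0, intermediate arrays in the medium control and lower ones in co-culture. Over 12 arrays the correlations of these 3 genes were 0.978, 0.978 and 0.940.

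Those most like Ccn2 were Cct3 (0.915), a chaperonin subunit gene, Sphk1 (0.905), a sphingosine kinase gene, and Dcbld1 (0.900). Sphk1 measured 2.81, 4.59 and 3.72 at day 0, 8.65 and 8.84 in the medium control, 10.36, 11.51 and 11.09 on LSK day 1, 3.27, 10.45 and 9.84 on LSK day 2, and 9.70 and 8.62 on LSK day 3. Its only later array within the day 0 range was day 2 replicate 1, the array on which Ccn2 also came nearest to its day 0 level. Over 12 arrays these correlations were 0.904, 0.899 and 0.888.

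**Figure D5:**
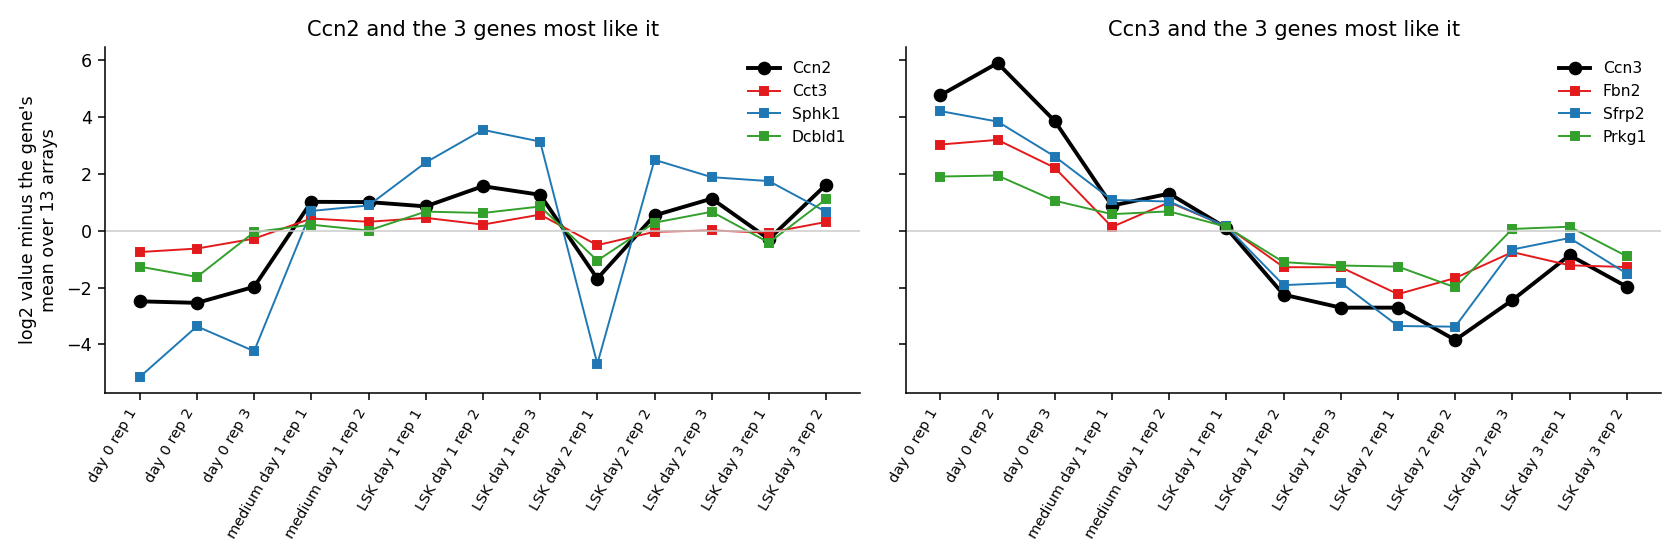
Log2 value minus each gene's mean over 13 arrays (y axis) on every array (x axis), for Ccn2 (left) and Ccn3 (right) in black, each with the 3 genes whose pattern correlates best with it in colour. The curves of Ccn3, Fbn2, Sfrp2 and Prkg1 are highest on the 3 day 0 arrays, and those of Ccn2 and Sphk1 are low at day 0 and on LSK day 2 replicate 1.

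For Ccn1 the nearest genes were Hdgfl2 (0.989), Bag6 (0.984) and Ilvbl (0.981), which like Ccn1 were low on day 2 replicates 1 and 2. Bag6, for example, measured 3.52, 5.13 and 8.59 on LSK day 2, against 8.07, 8.70 and 8.09 at day 0. For Ccn4 they were Myo10 (0.978), Immt (0.969) and Cnn3 (0.965), and for Ccn5 Gtf2i (0.928), Ptpn13 (0.926) and Ildr2 (0.916). Over 12 arrays the correlations of these 9 genes lay between 0.895 and 0.974.

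Genes upstream of the family were read from lists of known pathway members. Among 24 measured targets of YAP and TEAD other than the CCN genes, 0 passed in limma in any of the 7 comparisons, where 0.00819% to 5.2% of all genes passed. Between LSK day 1 and day 0, 2 had an unadjusted p under 0.05, both lower, and the median was -0.46, beside 0 for all genes. Between the medium control and day 0, 0 had an unadjusted p under 0.05, and the median was 0.02, where Ccn2 differed by 3.34. Ankrd1, a cardiac ankyrin repeat gene often read as a YAP target beside Ccn1 and Ccn2, measured 10.59, 10.31 and 10.07 at day 0, 10.97 and 11.05 in the medium control, 9.84, 9.70 and 9.56 on LSK day 1, 2.62, 7.14 and 9.91 on LSK day 2, and 8.89 and 10.32 on LSK day 3. Its LSK day 1 arrays lay below its day 0 arrays, where those of Ccn2 lay above, and its lowest arrays were those on which Ccn1 was lowest.

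On LSK day 2 Ankrd1 differed from day 0 by -3.76 ± 1.42 (adjusted p = 0.144, and -1.79 with adjusted p = 0.183 without day 2 replicate 1). Of the 24 listed targets, 11 had an unadjusted p under 0.05 in limma between LSK day 2 and day 0, all lower. The share of all genes under that threshold was not counted there. The median of the list there was -1.81, and -0.71 without day 2 replicate 1, beside -0.29 and -0.11 for all genes. Birc5, a mitotic survival gene, differed by -3.67 ± 1.14 between LSK day 1 and the medium control (adjusted p = 0.0966, and 0.0072 without that array). Without day 2 replicate 1, 6 of the 24 passed as lower between LSK day 3 and day 0, and 5 as lower between LSK day 1 and the medium control. The shares of all genes that passed were then 7.69% and 17.2%. In both comparisons 0 of the 24 passed as higher.

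Among 16 measured genes of the Hippo pathway machinery, 2 passed between LSK day 2 and day 0, 1 in each direction, where 2.26% of all genes passed, and 0 passed there without day 2 replicate 1. Wwtr1, which encodes the YAP relative TAZ, measured 11.68, 11.30 and 10.64 at day 0, 11.26 and 11.38 in the medium control, 9.53, 9.65 and 9.39 on LSK day 1, 7.63, 8.88 and 9.86 on LSK day 2, and 9.10 and 10.13 on LSK day 3. All 8 co-culture arrays lay below the 5 arrays without LSK cells, a separation whose share over all genes was not counted. The fall of Wwtr1 on day 2 was -2.42 ± 0.52 (adjusted p = 0.0498, and 0.0576 without day 2 replicate 1). Tead4, a TEAD factor gene, measured 3.92, 3.42 and 3.62 on LSK day 2, against 2.84, 2.82 and 2.28 at day 0, where replicate 3 lay at the lowest value. It passed as higher on day 2 (adjusted p = 0.0498, and 0.0687 without that array), by a difference of 1.01 that is a bound. Taok1, a kinase upstream of the Hippo kinases, fell by 3.05 ± 0.68 on LSK day 1 against the medium control (adjusted p = 0.0385, and 0.0176 without that array). It was the 1 gene of the 16 that passed there, where 5.2% of all genes passed, and without day 2 replicate 1 there were 5, all lower, where 17.2% passed.

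Of 18 measured TGF-beta response genes, 17 targets of serum response factor and its cofactor MRTF, and 8 canonical Wnt targets, 0 passed in limma in any of the 7 comparisons. Between LSK day 1 and day 0, 3, 2 and 2 of these had an unadjusted p under 0.05, and the list medians were 0.51, -0.47 and 0.29. When day 2 replicate 1 was left out, 3 TGF-beta response genes passed as higher in that comparison, and 0 as lower, where 10.6% of all genes passed. Between LSK day 2 and day 0, 6, 6 and 2 genes of the 3 lists had an unadjusted p under 0.05 in limma. Of these, 5, 6 and 1 were lower. The share of all genes under that threshold was not counted, so these counts are not read as results about the lists. Among the largest differences on these lists were those on day 2 against day 0, at -5.10 ± 1.18 for Col3a1 (adjusted p = 0.0572), 4.40 ± 1.62 for Tgfbi (adjusted p = 0.138) and -3.79 ± 1.25 for Zyx (adjusted p = 0.113). Leaving out day 2 replicate 1 put them at -3.70 (adjusted p = 0.068), 2.61 (adjusted p = 0.269) and -2.07 (adjusted p = 0.121), in that order of genes. Fosb, an immediate early gene, differed by -3.33 ± 0.87 on day 3 against day 0 (adjusted p = 0.129, and 0.0624 without that array). Axin2, the negative feedback gene of Wnt signalling, measured 7.39, 6.62 and 6.58 on LSK day 1, against 4.77, 4.60 and 5.44 at day 0, a difference of 1.93 ± 0.44 (adjusted p = 0.0608, and 0.0261 without day 2 replicate 1). Apcdd1, a Wnt inhibitor gene, differed by -2.17 ± 1.03 on day 2 against day 0 (adjusted p = 0.213, and -0.71 with adjusted p = 0.383 without that array).

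Downstream of the family, 15 receptors and co-receptors were measured and 1 passed, between LSK day 1 and the medium control, where 5.2% of all genes passed. Itga2b, the integrin alpha-IIb gene, which is also a marker of megakaryocytes, measured 7.91, 8.64 and 8.24 on LSK day 1, 5.25 and 5.70 in the medium control and 7.29, 7.31 and 7.91 at day 0. It was higher on LSK day 1 than in the medium control by 2.79 ± 0.37 (adjusted p = 0.00924, and 0.00226 without day 2 replicate 1). The medium control was its lowest group. The 9 megakaryocyte and erythroid markers on the array, Itga2b among them, averaged 3.48 to 3.61 on LSK day 1, 2.90 to 3.01 in the medium control and 3.10 to 3.18 at day 0. Of these, 5 (Ppbp, Vwf, Gata1, Klf1 and Hba-a1) lay within 0.1 of the lowest value in these 3 groups, and the part of such cells in the result was not tested.

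Of 8 measured growth factors and matrix proteins that bind CCN proteins, 2 passed in at least 1 comparison, 1 of them in each comparison with day 0 (0.328% to 2.26% of all genes passed) and the other between LSK day 1 and the medium control (5.2%). Dcn, the gene of the proteoglycan decorin, a partner of CCN2, measured 5.20, 5.12 and 5.07 at day 0 and at most 2.86 on the other 10 arrays, close to the lowest value. Its differences from day 0 were -2.34 in the medium control and -2.61, -2.50 and -2.52 on LSK days 1, 2 and 3, lower bounds on the fall, with adjusted p = 0.00321, 0.00139, 0.00145 and 0.00295. Igf1, the insulin-like growth factor gene, measured 4.47, 4.29 and 4.37 on LSK day 1, against 7.68 and 7.88 in the medium control. This is a difference of -3.40 ± 0.79 (adjusted p = 0.0427, and 0.0163 without day 2 replicate 1). At day 0 Igf1 measured 7.52, 4.62 and 5.41, above LSK day 1 and below the medium control. The medium control was its highest group.

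Of 4 measured proteases that cleave CCN proteins, 1 passed, the gelatinase gene Mmp2, which fell by 2.05 ± 0.41 on LSK day 2 against day 0 (adjusted p = 0.0425, and 0.0625 without day 2 replicate 1), where 2.26% of all genes passed. Of 11 other matricellular genes, 1 passed in that comparison and 1 between LSK day 1 and the medium control, where 5.2% passed. Tnc, the tenascin-C gene, measured 3.17, 6.58 and 8.22 on LSK day 2, against 12.18, 11.16 and 10.07 at day 0, a fall of 5.15 ± 1.10 (adjusted p = 0.0494, and 0.0404 without day 2 replicate 1). Thbs2, the thrombospondin-2 gene, measured 12.03, 11.74 and 11.66 on LSK day 1, against 9.76 and 10.29 in the medium control. This is a difference of 1.78 ± 0.43 (adjusted p = 0.0456, and 0.0163 without that array). At day 0 Thbs2 measured 11.19, 12.12 and 11.08, so LSK day 1 lay within the day 0 range and the medium control below it.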

How the data were processed

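Per the submitters' processing notes, RMA and GCRMA were used to make the deposited log2 values, with no version or role given, and the labels do not say which gave this table. Values run between 2.28 and 15.7, and the lowest is shared by 31.7% to 44.5% of an array's probe sets. Day 0, a medium control and LSK days 1 to 3 had 3, 2, 3, 3 and 2 arrays, and this number limits the precision. The filter kept the 25216 probe sets that exceeded 2.38, the median of all values, on 2 or more arrays. Per gene the probe set with the highest mean was tested. A model with 1 mean for each group was fitted to the 13 arrays together with limma 3.58.1 (R 4.3.3, lmFit, contrasts, eBayes), with Benjamini-Hochberg adjustment over 12205 genes and a threshold of 0.05, in 7 comparisons. The fit was tested on simulated data. Figures used matplotlib 3.10.9 under Python 3.11.15.

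From each pathway list, up to 4 genes with the largest differences past the threshold were named, and otherwise up to 2 with their values. For each member the 3 genes with the highest correlation over 13 arrays were named. The members and the lists were chosen with earlier results of these data known. Symbols and the promoter came from RefSeq (GRCm38.p6). Alternatives changed the filter, scaling, probe set rule, variance model, array weights, samples and the replicate block. Deviations from the group mean correlated at -0.371 to 0.261 between same-numbered arrays of different groups (23 pairs). Between arrays of different number the range was -0.379 to 0.381 (44 pairs). In groups of 2 arrays the deviations mirror each other, so this check cannot decide whether the numbers pair the samples.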

Additional observations from a re-analysis of the deposited data

How the results depend on the processing

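Alternatives to the chosen processing moved the number of CCN genes past the threshold as follows, and the cause was not tested. The share of all genes that passed is not given for each setting, so these counts are not read as results about the members. Without the filter, 1 passed between LSK day 1 and day 0, since Ccn2 did not (adjusted p = 0.0719). With arrays centred on their median, 2 passed between LSK day 2 and day 0. Centring put the median of all genes at 0.15, 0.49 and 0.21 on LSK days 1, 2 and 3 against day 0. Array weights gave 2 between the medium control and day 0, 3 between LSK day 1 and day 0 (Ccn4 added, -1.06, adjusted p = 0.0334), 4 between LSK day 2 and day 0, 2 between LSK day 1 and the medium control (Ccn3, adjusted p = 0.000994, and Ccn4, adjusted p = 0.00375) and 1 between LSK day 2 and day 1. The weights on LSK day 2 were 0.0389, 0.877 and 0.164 for replicates 1, 2 and 3, so replicate 2 carried most of that group. With weights Ccn3 lost its call on LSK day 3 (-6.33, adjusted p = 0.0694) and Ccn2 passed there. Fitting only the compared groups, with fewer samples, gave 1 between the medium control and day 0, 0 between LSK day 2 and day 0 (Ccn3, adjusted p = 0.178), 0 between LSK day 3 and day 0 (adjusted p = 0.0805) and 1 between LSK day 1 and the medium control (Ccn4, adjusted p = 0.0294). The replicate block gave 0 between LSK day 3 and day 0 (Ccn3, -6.51, adjusted p = 0.0837), changed no other call of a member, and 5 of 13 arrays correlated best with an array of their own number. Leaving out LSK day 2 replicates 1 and 2 and day 3 replicate 2, chosen after seeing the data, left 1 array on each of these days. Only sizes are therefore given. Against day 0, Ccn3 then stood at -7.28 and Ccn2 at 3.46 on LSK day 2. Ccn2 stood at 2.04 and Ccn4 at -2.26 on LSK day 3.

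With 1 array left out, the counts ran between 0 and 1 for the medium control, 0 and 2 for LSK day 1, 1 and 3 for day 2 and 0 and 2 for day 3, all against day 0. The member counts were 0 for LSK day 1 against the medium control, 0 to 2 for LSK day 2 against day 1 and 0 for LSK day 3 against day 1. In the first 2 of these comparisons at most 2103 and 1887 of all genes passed.

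Signs turned only in differences that did not pass. Against day 0, Ccn1 on LSK day 3 was 0.20 with centring, 0.26 with the block and 0.37 without the doubted arrays. Ccn1 in the medium control was 0.13 with the block, Ccn4 there was -0.010 with weights, and without the doubted arrays Ccn1 on day 2 was 0.19 and Ccn5 on day 3 was 0.16. With the block, Ccn2 was -0.038 for LSK day 1 against the medium control. For LSK day 3 against day 1, Ccn1 was 0.035 and Ccn3 -0.048 with the block, and Ccn1 was 0.14 and Ccn5 0.32 without the doubted arrays. With 1 array left out, signs turned against day 0 for Ccn4 in the medium control (-0.095 to 0.49), Ccn5 on LSK day 1 (-0.93 to 0.90), Ccn1 on day 3 (-0.38 to 0.37) and Ccn5 on day 3 (-2.09 to 0.16). Between LSK day 3 and day 1 they turned for Ccn1 (-0.61 to 0.14), Ccn2 (-1.52 to 0.39), Ccn3 (-0.35 to 1.06) and Ccn5 (-1.94 to 0.32). All other differences of single members kept their sign under the alternatives run, and those of Ccn2 and Ccn3 from day 0 are among them.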

Other observations

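Ccn6, formerly Wisp3, is the remaining gene of the family and was not among the members. Its probe set 1444050_at lay at 2.28, the lowest value of the table, on all 13 arrays.

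The genes that ran most opposite to Ccn2 over 13 arrays were the integrin gene Itga1 (-0.93), Tlr2 (-0.92) and the thrombomodulin gene Thbd (-0.90). Those most opposite to Ccn3 were Mrps17 (-0.94), the transglutaminase gene Tgm2 (-0.93) and Rnf125 (-0.93). These correlations describe arrays that share groups and handling.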
